A study of Homo sapiens with 24 samples.

Results

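The genes described are 6 matrix metalloproteinases (MMP1, MMP2, MMP3, MMP10, MMP12 and MMP14) and 3 tissue inhibitors of metalloproteinases (TIMP1, TIMP2 and TIMP3). They were taken by gene symbol from the platform annotation, 9 of 18774 genes named on the array, and each was read from its brightest probe. All 9 passed the filter on dim probes, among 10958 genes that did. The cells were IMR90, a line of human fetal lung fibroblasts, carrying RAS-G12V joined to an estrogen receptor domain (ER:RAS-G12V), which 4-hydroxytamoxifen (4-OHT) switches on. They were harvested after 2 h, 8 h, 24 h, 2 d, 4 d, 6 d or 8 d in 100 nM 4-OHT, or at 0 h, with 1 array per time point from each of 3 biological batches (A, B and D), 24 arrays in all. Every group, 0 h included, carries the ER:RAS-G12V construct. The sources used here do not say which promoter drives it or whether the cells are 1 clone. Cells kept without 4-OHT to the later times were not analysed here, so drug, RAS and time in culture cannot be told apart in any comparison with 0 h.

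Matrix metalloproteinases are zinc-dependent enzymes that cut collagens, proteoglycans and other proteins outside the cell, and most are secreted as inactive proenzymes that another protease must open. TIMPs bind the active enzymes and block them, and some also take part in activation, as TIMP2 does for MMP2 at the cell surface together with MMP14. Fibroblasts are a main source of both, and senescent fibroblasts are known to secrete several MMPs. MMP10, MMP1, MMP3 and MMP12 lie side by side in this order on chromosome 11, inside a cluster in which the RefSeq gene table places MMP7, MMP20, MMP27 and MMP8 before them and MMP13 after them. MMP14 is on chromosome 14, MMP2 on chromosome 16, TIMP2 on chromosome 17, TIMP3 on chromosome 22 and TIMP1 on chromosome X. RNA was measured here, not protein or enzyme activity, and in bulk RNA fewer cells with a transcript and less of it per cell cannot be told apart.

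RefSeq promoter windows, from 250 bases before to 50 after the annotated start, were matched for MMP10, MMP14, TIMP1 and TIMP3. The windows of MMP10 and TIMP3 are shown because one gene ended the time course higher and the other lower than at 0 h. Capitals mark matches, on either strand, to TGANTCA (the AP-1 motif), AGGAAG (an ETS motif), GGGCGG (the GC box) or TATAAA (the TATA box). The MMP10 window is GRCh38.p14 chr11:102780579-102780878, minus strand, and the TIMP3 window is chr22:32801455-32801754, plus strand.
MMP10 promoter: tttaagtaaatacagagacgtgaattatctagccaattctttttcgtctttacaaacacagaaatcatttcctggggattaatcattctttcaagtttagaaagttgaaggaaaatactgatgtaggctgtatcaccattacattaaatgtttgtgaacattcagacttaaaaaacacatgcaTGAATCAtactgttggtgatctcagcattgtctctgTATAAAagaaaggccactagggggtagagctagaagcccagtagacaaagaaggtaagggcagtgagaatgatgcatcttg
TIMP3 promoter: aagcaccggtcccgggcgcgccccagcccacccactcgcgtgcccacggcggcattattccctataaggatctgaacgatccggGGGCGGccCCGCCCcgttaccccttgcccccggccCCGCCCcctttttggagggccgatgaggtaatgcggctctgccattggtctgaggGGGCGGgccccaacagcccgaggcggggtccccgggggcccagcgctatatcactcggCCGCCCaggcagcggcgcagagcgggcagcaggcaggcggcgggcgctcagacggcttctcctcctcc
The MMP10 window held 1 AP-1 match, with its first base at -67 relative to the start, and 1 TATA match at -31, with no overlap between them. The TIMP3 window held 5 GC box matches and none to the other 3 motifs. The MMP14 window held 1 GC box, and the TIMP1 window held 2 GC boxes and 1 ETS match. Of 35116 promoters in the RefSeq table, 7.71% held TGANTCA, 33.6% AGGAAG, 44.95% GGGCGG and 11.5% TATAAA. These matches describe letters, and binding was not measured.

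Values below are log2 intensities after background correction and quantile normalization, and changes are log2 differences with the standard error (SE) of the limma fit over all 24 arrays, n = 3 arrays per time point. An array value can be compared between times for one probe, not between genes. A change was called where limma's p, adjusted by Benjamini-Hochberg over 10958 genes, was under 0.05. The 7 comparisons with 0 h share the 3 arrays of 0 h. The 12 fibroblast markers, VIM, COL1A1 and PDGFRB among them, were above background on all 24 arrays. From 26.5% to 30.0% of all probes were above background on an array. The first principal component (65.2% of the variance) spread the 4 d arrays widely, at 33.6 for batch A, 46.7 for B and 24.9 for D. The 2 d arrays lay at -13.5 to -8.88 and the 6 d and 8 d arrays at 41.3 to 51.2, a range that holds the 4 d array of batch B. For the 9 genes, results at 4 d that rest on single arrays are given with and without them.

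At 8 d against 0 h, 7 of the 9 genes were higher and 1 was lower, where 24.1% of all genes tested were called higher and 23.5% lower. MMP1, MMP2, MMP3, MMP10, MMP12, MMP14 and TIMP1 were the higher ones, TIMP3 was lower, and TIMP2 was not called. Over the alternatives tried, 6 to 8 of the 9 were called at 8 d. The calls of MMP2 and TIMP1 were lost with median centring and with no filter on dim probes. The median change of the 9 genes was 0.79, beside 0.02 over all genes tested. The groups did not overlap for any of the 9 genes, TIMP2 included, as was so for 55.8% of all genes tested, and 47.6% of all genes were called in either direction. At 6 d, 6 genes were higher (23.8% of all genes) and 1 lower (21.7%), and at 4 d again 6 higher (21.8%) and 1 lower (22.3%), where 45.5% and 44.1% of all genes were called either way. The count was smaller before: 2 higher (11%) and 2 lower (12.5%; 23.6% of all genes either way) at 2 d, and 2 higher (6.89%) and 1 lower (11.2%; 18.1% either way) at 24 h. At 8 h it was 1 higher (2.13%) and 0 lower (2.45%; 4.58% either way), and at 2 h 0 higher (0.42%) and 0 lower (0.201%; 0.621% either way). The 4 d arrays set against the 2 d arrays gave 6 genes higher (17%) and none lower (19.2%; 36.2% either way), and 8 d against 4 d gave 2 higher (10.4%) and 1 lower (10.1%; 20.4% either way). An F test over the 8 time points called 8 of the 9 genes, with TIMP2 the exception (adjusted p = 0.294), and it called 69.6% of all genes. With the mean of kept probes, which joins the 2 probes of TIMP2, it called all 9.

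**Figure D1:**
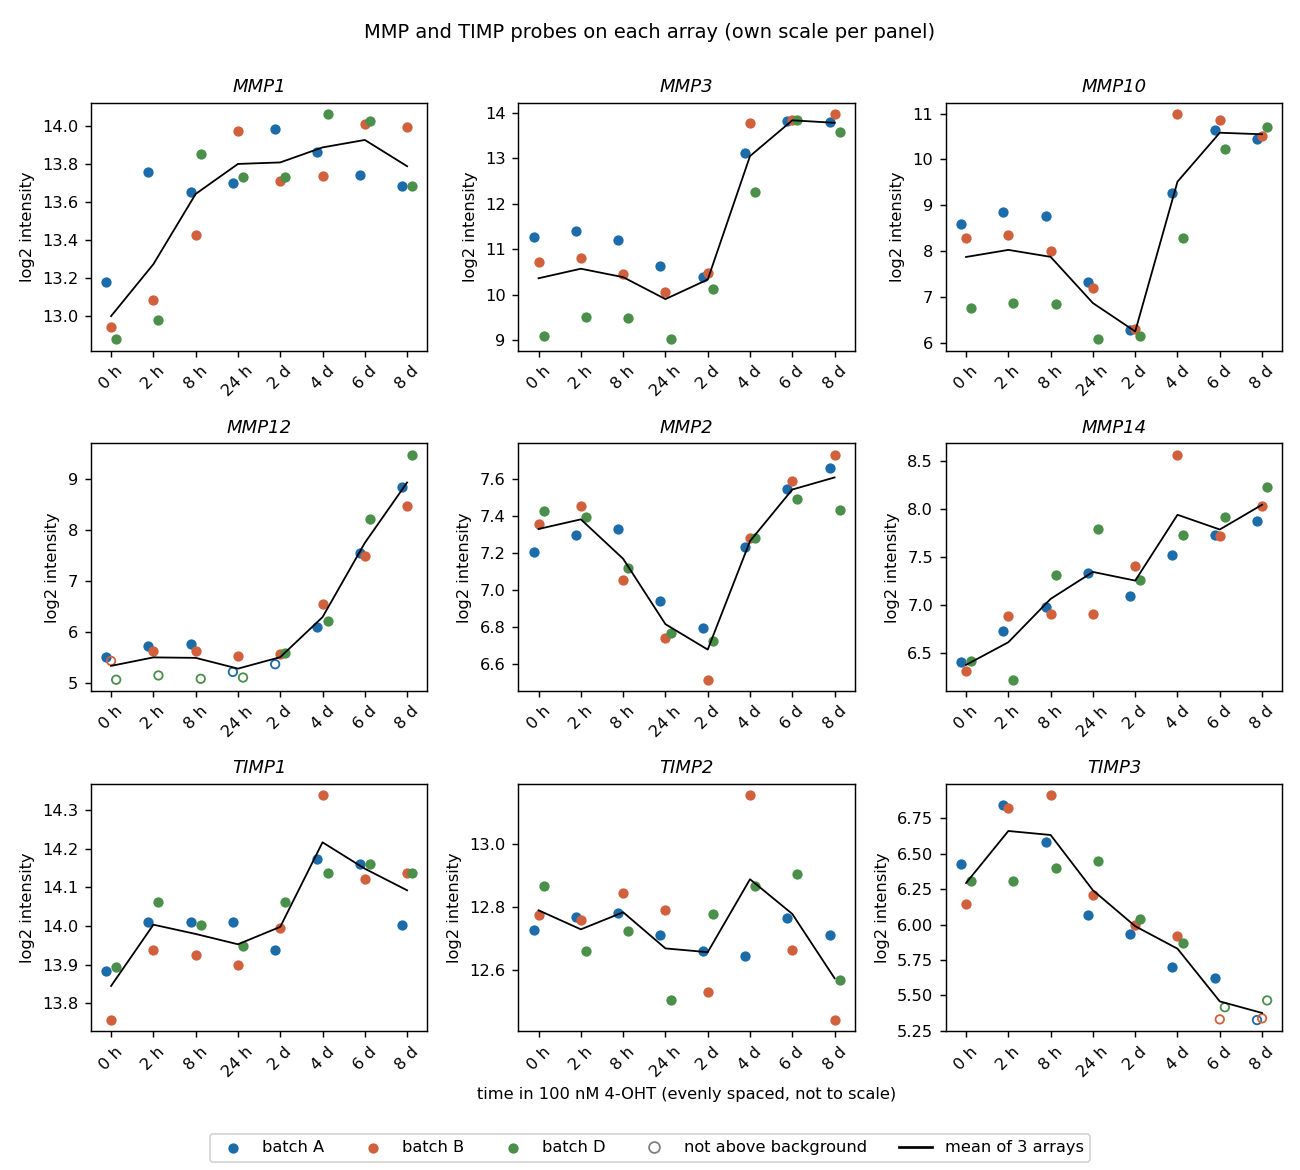
Log2 intensity of each of the 9 genes on each of the 24 arrays against time in 4-OHT, with 1 colour per batch, open circles for arrays not above background and a line through the mean of 3 arrays. MMP3, MMP10 and MMP12 climb after 2 d, MMP1 and MMP14 earlier, TIMP3 ends below background, and each panel has its own scale.

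MMP3, stromelysin 1, which cuts proteoglycans and fibronectin and activates other pro-MMPs, was 10.7-fold higher at 8 d than at 0 h. At 8 d its arrays read 13.80, 13.96 and 13.57 (batches A, B and D), against 11.27, 10.72 and 9.09 at 0 h. The 3 arrays of 8 d lay above all those of 0 h, with the 0 h array of batch D the lowest by far. Batch D also read lowest of the 3 batches at 2 h (9.51), 8 h (9.49) and 24 h (9.02). The change was 3.42 ± 0.51 (SE, adjusted p = 5.58e-06), made up of 2.53 in A, 3.24 in B and 4.48 in D. The 24 h arrays (10.63, 10.06 and 9.02) and the 2 d arrays (10.38, 10.48 and 10.13) overlapped those of 0 h. The step came between 2 d and 4 d, with 13.11, 13.78 and 12.26 at 4 d, and a 4 d against 2 d change of 2.72 ± 0.51 (adjusted p = 0.000192). By 6 d the 3 batches read 13.82, 13.85 and 13.83, far closer together than at 0 h. The probe then stood at places 46 to 49 among the 48701 probes of its array ordered by brightness. How far a probe this bright can still rise was not tested. Without the 0 h array of batch D the change was 2.78 at 8 d (6.89-fold), 2.84 at 6 d and 2.05 at 4 d. MMP3 kept its calls at 4 d, 6 d and 8 d against 0 h and at 4 d against 2 d under every alternative tried.

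MMP10, stromelysin 2, a close relative of MMP3 with a similar range of substrates, went below its 0 h level before it went above it. At 2 d its arrays read 6.29, 6.31 and 6.14, against 8.59, 8.28 and 6.75 at 0 h, a change of -1.62 ± 0.57 (adjusted p = 0.0405). The batches differed in this: -2.30 in A, -1.97 in B and -0.60 in D, where the 0 h array was already low. Batch D read lowest of the 3 batches at 2 h (6.87), 8 h (6.85) and 24 h (6.08) too. At 4 d the arrays read 9.27, 10.98 and 8.29, overlapping 0 h, with batch B highest. The change from 0 h at 4 d was 1.64 ± 0.57 (adjusted p = 0.022), and the change from 2 d was 3.27 ± 0.57 (adjusted p = 8.99e-05). At 8 d they read 10.44, 10.50 and 10.70, all above 0 h, a change of 2.68 ± 0.57 (6.39-fold, adjusted p = 0.000421), or 2.04 (4.11-fold) without batch D. Without the 4 d array of batch D, the 4 d change was 2.25 from 0 h and 3.88 from 2 d, and the change from 2 d was 2.53 without the 4 d array of batch B and 2.57 without all of batch B. The fall at 2 d was not called without the 0 h array of batch A (adjusted p = 0.181) or B (0.136), or without the 2 d array of batch A (0.0848), B (0.0857) or D (0.0957), nor without all of batch A (0.328) or batch B (0.206). It also missed the threshold with the series matrix values (adjusted p = 0.0546) and with a normexp offset of 50 (0.0655). The rise at 4 d was not called without the 0 h array of batch D (change 1.08, adjusted p = 0.153), the 4 d array of batch B (0.91, 0.203) or all of batch B (1.11, 0.266). Without the 4 d array of batch B, 8 d was above 4 d by 1.77 (adjusted p = 0.0259), against 1.03 (adjusted p = 0.215) with it, and without batch D the 24 h level was below 0 h by a called change of -1.17 (adjusted p = 0.0437).

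MMP12, macrophage elastase, which cuts elastin and is best known from macrophages, was called from 4 d on and went on rising to 8 d. At 8 d its arrays read 8.84, 8.47 and 9.47, against 5.50, 5.43 and 5.06 at 0 h, where 1 of 3 arrays was above background. The change was 3.60 ± 0.23 (adjusted p = 1.12e-11), from 3.05 to 4.41 in the 3 batches. With 2 of 3 arrays at 0 h not above background, its size rests on the background step, and with a normexp offset of 50 it was 2.81 at 8 d and 1.74 at 6 d. At 4 d the arrays read 6.10, 6.54 and 6.22 and at 6 d 7.54, 7.48 and 8.21, changes from 0 h of 0.96 ± 0.23 (adjusted p = 0.00163) and 2.41 ± 0.23 (adjusted p = 7.9e-09). No array of 4 d, 6 d or 8 d reached down to the 0 h arrays. From 4 d to 8 d the gain was 2.64 ± 0.23 (adjusted p = 1.57e-08), the ninth highest change of all genes tested in that comparison. The smaller 4 d against 2 d change, 0.79 ± 0.23 (adjusted p = 0.00977), was not called without the 4 d array of batch B (0.66, adjusted p = 0.0568), batch A (adjusted p = 0.0836) or batch B (0.112).

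MMP12 is a macrophage gene by name, so markers of immune cells were read on the same arrays. Of 11 such markers on the array, CD14, LYZ, ITGAM, MRC1, CD3E, MS4A1 and NKG7 were above background on no array, and PTPRC and CD163 on 1. CD68, a lysosomal protein, and CSF1R, a receptor kinase, were above background on all 24 arrays and rose at 8 d by 0.99 ± 0.11 and 0.39 ± 0.14 (adjusted p = 4.24e-08 and 0.0244). The mean level over the 11 markers was 5.57 to 5.74 on the 8 d arrays and 5.44 to 5.51 on the 0 h arrays, and its part in the MMP12 result was not tested. Of 10 epithelial markers, CDH1, KRT5, KRT14, SFTPC and CLDN4 were above background on no array, and of 9 endothelial markers CDH5, ESAM and EMCN on none. KRT18, MUC1 and TEK were above background on all 24 arrays. Of the epithelial markers that passed the filter, 4 of 5 were lower at 8 d, beside 23.5% of all genes. Of the endothelial ones 2 of 6 were higher, beside 24.1%. EPCAM, KRT8 and KRT19 were above background on no 8 d array, and PECAM1, KDR, TIE1 and CLDN5 on no 0 h array. They passed the filter through other arrays, so these counts were fixed in part by the filter.

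MMP1, interstitial collagenase, which makes the first cut in fibrillar collagen, was called earlier, from 8 h on. At 24 h its arrays read 13.70, 13.97 and 13.73, against 13.18, 12.95 and 12.88 at 0 h, with no overlap and a change of 0.80 ± 0.16 (adjusted p = 0.00138). It then stayed within a narrow band, with changes from 0 h of 0.81 at 2 d, 0.89 at 4 d, 0.93 at 6 d and 0.79 at 8 d, each called. Neither 4 d against 2 d (0.08, adjusted p = 0.752) nor 8 d against 4 d (-0.10, adjusted p = 0.729) was called. The probe is one of the brightest of each array, between places 19 and 218 of 48701. The rise at 8 h, 0.64 ± 0.16 (adjusted p = 0.024), was not called with median centring (adjusted p = 0.120), without the 0 h array of batch B (0.0705) or D (0.135), the 8 h array of batch A (0.0785) or D (0.0900), or without any 1 batch (0.117 to 0.194). The rise at 24 h missed the threshold without batch B (adjusted p = 0.0503).

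MMP14, the membrane-bound MT1-MMP, which cuts collagen at the cell surface and activates pro-MMP2, was called higher than at 0 h from 24 h on. At 24 h its arrays read 7.34, 6.91 and 7.79, and at 8 d 7.87, 8.04 and 8.23, while those of 0 h read 6.41, 6.31 and 6.41. Every array from 8 h on lay above the 3 arrays of 0 h. The change was 0.97 ± 0.22 at 24 h (adjusted p = 0.00324), 1.57 ± 0.22 at 4 d (3.8e-06) and 1.67 ± 0.22 at 8 d (3.18-fold, 1.12e-06). At 8 h it was 0.69 ± 0.22 and missed the threshold (adjusted p = 0.0769), and 8 d against 4 d was 0.10 ± 0.22 (0.787). The calls at 24 h and 2 d were lost without batch A (adjusted p = 0.0705 and 0.0616). The 4 d against 2 d change of 0.69 was lost without the 4 d array of batch B (0.37, adjusted p = 0.177), the 2 d array of batch A (0.0711), batch A (0.0692) or batch B (0.136), and that 4 d array, at 8.57, was the highest of all 24.

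MMP2, gelatinase A, which cuts denatured collagen and basement membrane collagen, fell and came back. At 2 d its arrays read 6.79, 6.51 and 6.72, against 7.20, 7.36 and 7.43 at 0 h, without overlap and with a change of -0.65 ± 0.10 (adjusted p = 6.46e-05). At 24 h it was already lower by a change of -0.52 ± 0.10 (adjusted p = 0.0012). At 4 d its arrays read 7.23, 7.28 and 7.28, within the range of 0 h and above 2 d by 0.59 ± 0.10 (adjusted p = 0.000113). Those 3 changes kept their calls under every alternative tried. At 8 d the arrays read 7.66, 7.73 and 7.43, a change from 0 h of 0.28 ± 0.10 (adjusted p = 0.0313) that was 0.04 with median centring (adjusted p = 0.891). It also missed the threshold with no filter on dim probes (adjusted p = 0.0636), without the 0 h array of batch A (0.142) or B (0.0556), the 8 d array of batch A (0.0902) or B (0.137), batch A (0.316) or batch B (0.207). The 8 d against 4 d change, 0.35 ± 0.10 (adjusted p = 0.0212), was likewise lost with median centring (0.419), without the 4 d array of batch A (0.0628), the 8 d array of batch A (0.0693) or B (0.106), batch A (0.209) or batch B (0.200).

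**Figure D2:**
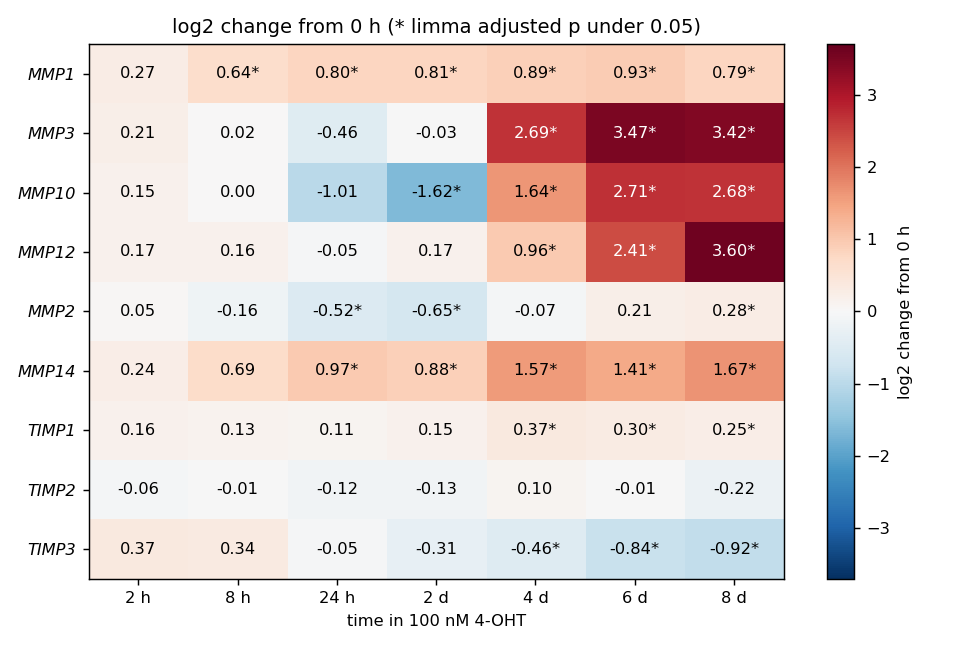
Heat map of the log2 change from 0 h of each gene at the 7 later time points (limma fit, n = 3 arrays per time point), with called changes marked by an asterisk. MMP3, MMP10 and MMP12 reach 2.68 to 3.60 at 8 d, MMP10 and MMP2 dip at 2 d, and the TIMP genes stay within 1 log2 unit of 0.

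The 3 inhibitors did not move together. TIMP3, which is held in the matrix and also inhibits ADAM proteases, was lower late in the course. Its arrays read 5.33, 5.34 and 5.46 at 8 d, where none of 3 was above background, against 6.43, 6.15 and 6.31 at 0 h, where all 3 were. The mean was 5.38 at 8 d and 6.29 at 0 h, so the level at 8 d was at least 1.71-fold lower (change -0.92 ± 0.14, adjusted p = 1.06e-05). At 6 d, with 1 of 3 arrays above background, the change was -0.84 ± 0.14 (adjusted p = 3.78e-05), and the calls at 6 d and 8 d held under every alternative tried. The change at 4 d, -0.46 ± 0.14 (adjusted p = 0.0107), was lost without the 0 h array of batch A (0.0548), the 4 d array of batch A (0.0509) or batch A (0.211). At 8 d against 4 d TIMP3 was at least 1.24-fold lower (change -0.45 ± 0.14, adjusted p = 0.0262). That call was lost with the series matrix values (0.0553), an offset of 50 (0.0712) or median centring (0.0764), without the 4 d array of batch B (0.0776) or D (0.0665), the 8 d array of batch A (0.0740) or B (0.0764), batch A (0.133) or batch B (0.191).

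TIMP1, a secreted inhibitor of most MMPs, was among the brightest probes of every array, between places 2 and 58 of 48701. At 8 d its arrays read 14.00, 14.14 and 14.14, against 13.88, 13.76 and 13.89 at 0 h, which did not overlap. The changes were 0.37 ± 0.08 at 4 d (adjusted p = 0.000963), 0.30 at 6 d (0.00498) and 0.25 at 8 d (0.0187), and 0.22 at 4 d against 2 d (0.0461). With median centring they were 0.29 (adjusted p = 0.155), 0.18 (0.379), 0.06 (0.782) and 0.21 (0.351), and none was called. At 4 d the call was lost without batch B (0.0958), and at 6 d without batch A (0.0828) or batch B (0.0792). At 8 d it was lost with no filter (0.0529), without the 0 h array of batch B (0.0935), the 8 d array of batch B (0.0615) or D (0.0588), or any 1 batch (0.0680 to 0.239). At 4 d against 2 d it was lost with batch as a replicate block (0.0528), with no filter (0.115), without the 2 d array of batch A (0.146) or B (0.104), the 4 d array of batch A (0.0594) or B (0.199), batch A (0.284) or batch B (0.395).

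TIMP2, the inhibitor that docks pro-MMP2 to MMP14, gave readings that depended on the probe. The brighter of its 2 probes, used here, read 12.71, 12.44 and 12.57 at 8 d, against 12.73, 12.78 and 12.87 at 0 h, close to one another but without overlap. Its change was -0.22 ± 0.12 (adjusted p = 0.136), and no comparison called it. The second probe had a change of 1.10 ± 0.19 at 4 d (adjusted p = 7.31e-05), 0.76 at 6 d (0.00268) and 0.60 at 8 d (0.0143), and so ran the other way at 8 d. Which transcripts the 2 probes detect was not tested. With the mean of both probes the gene was called higher at 6 d (0.37, adjusted p = 0.0159), where the brighter probe alone gave -0.01. That mean was also called higher at 4 d (0.60, 0.000364) and at 4 d against 2 d (0.46, 0.00536), and lower at 8 d against 4 d (-0.41, 0.0211). At 8 d against 4 d, -0.31 ± 0.12 (adjusted p = 0.0603) became a called fall without the 4 d array of batch A (0.0145) or the 8 d array of batch A (0.0459), with the series matrix values (0.0440) or an offset of 50 (0.0432). At 4 d against 2 d, 0.23 ± 0.12 (adjusted p = 0.130) became a called rise of 0.35 without the 4 d array of batch A (0.0272).

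**Figure D3:**
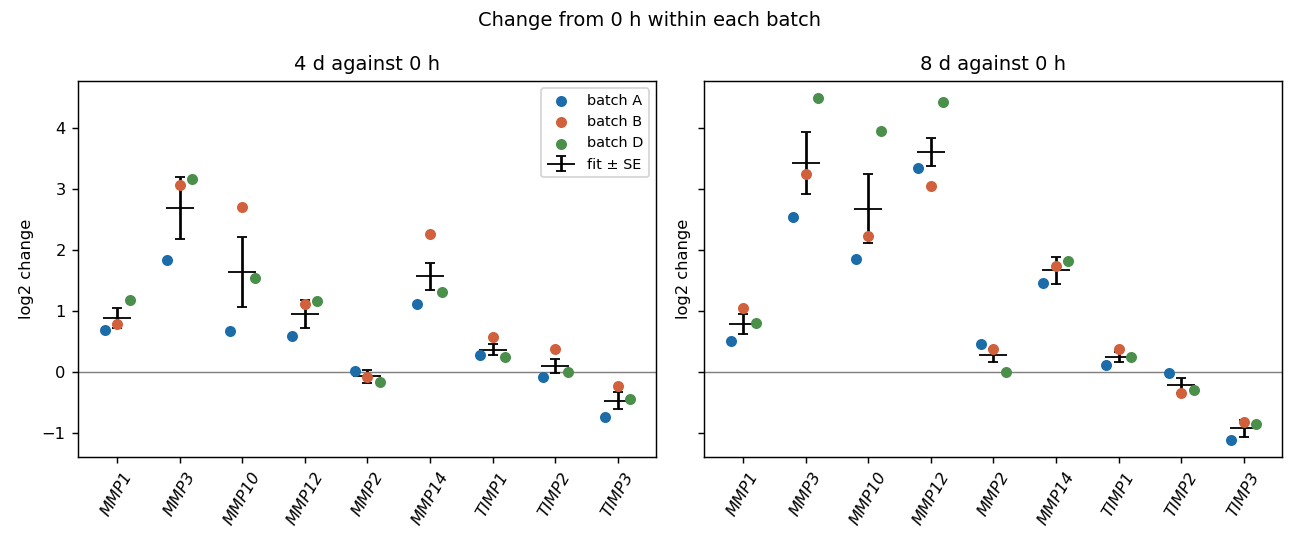
Log2 change between arrays of the same batch letter, 1 point per batch, for the 9 genes at 4 d and at 8 d against 0 h. Black bars give the limma fit ± SE. At 8 d MMP3 gives 2.53, 3.24 and 4.48 and MMP10 gives 1.85, 2.23 and 3.95 in batches A, B and D, with batch D, which was low at 0 h, the highest in both.

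Across the 24 arrays, which share time points and batches, MMP3 and MMP10 had the closest profiles of the 36 pairs (Pearson r = 0.940), followed by MMP3 with MMP12 (0.866) and MMP10 with MMP12 (0.822). MMP1, in the same cluster on chromosome 11, had r = 0.454 with MMP3 and 0.251 with MMP10. TIMP3 ran opposite to MMP12 (r = -0.772) and MMP3 (-0.741). MMP14 and TIMP1 had r = 0.771, and TIMP2, read from its brighter probe only, stayed between -0.137 and 0.198 with all the others. These correlations describe the time course, and no p is attached to them.

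Over all genes tested, the 3 whose profile was most like that of MMP3 were SAT1, which starts polyamine breakdown, NRG1, an EGF-family ligand, and PTGS2, the inducible prostaglandin synthase (r = 0.967, 0.966 and 0.965 over 24 arrays). For MMP10 they were IL24, a cytokine, NFKBIZ, a regulator of NF-kB, and MAN2B1, a lysosomal mannosidase (0.947, 0.946 and 0.945). For MMP12 they were CST4, a salivary cystatin, FOLR3, a secreted folate receptor, and SERPINB4, a serpin (0.971, 0.969 and 0.968). For TIMP3 they were AEBP1, a matrix protein, MB21D2 and ARSJ (0.928, 0.925 and 0.922), which fell at 8 d by changes of -2.06, -1.92 and -2.36. For MMP14 they were ECE1, the endothelin-converting enzyme, ZNF792 and SLCO4A1 (0.917, 0.916 and 0.916), and for MMP2 CADM1, COL4A1 and NKIRAS2 (0.906, 0.905 and 0.890). COL4A1 encodes a basement membrane collagen, a class of protein that MMP2 cuts. The best matches of the remaining genes were FZD8, EFL1 and DCBLD2 for MMP1 (0.876 to 0.839), PLK3, GLCE and PTPRE for TIMP1 (0.913 to 0.882) and ERGIC2, SEC62 and PDGFC for TIMP2 (0.848 to 0.766).

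Of 17 other MMP and TIMP genes on the array, 6 passed the filter on dim probes, 9 were above background on no array, and MMP13 and MMP21 on 1. MMP7, matrilysin, from the chromosome 11 cluster, was above background on 0 of 3 arrays at 0 h and on 3 of 3 at 8 d, at least 6.79-fold higher (adjusted p = 7.84e-05). Its 4 d arrays read 6.91, 10.65 and 5.98, with batch B far above the others. MMP9, gelatinase B, was at least 1.42-fold higher at 8 d (adjusted p = 0.00167) and MMP15, a membrane-type MMP, at least 1.31-fold (4.71e-05), both from 0 of 3 arrays above background at 0 h. MMP11, stromelysin 3, was not above background on any 24 h array and at least 1.68-fold lower there than at 0 h (adjusted p = 0.000399). At 4 d it was higher than at 0 h by 1.17 ± 0.20 (adjusted p = 5.02e-05), and at 8 d lower than at 4 d by a change of -1.18 ± 0.20 (0.000171). MMP16, also a membrane-type MMP, peaked at 2 d with 1.17 ± 0.23 (adjusted p = 0.000699) and fell again by 4 d (change from 2 d -0.84, 0.00646). Its 4 d arrays read 6.50, 5.53 and 6.94, with batch B the lowest. At 4 d against 2 d, 0 to 1 of the 6 genes were called lower over the alternatives tried. TIMP4, the remaining inhibitor, was not called in any comparison. MMP7, MMP9 and MMP15 passed the filter through 9, 6 and 10 arrays, nearly all of them of 4 d to 8 d, so how many of the 6 were higher at 8 d was fixed in part by the filter.

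**Figure D4:**
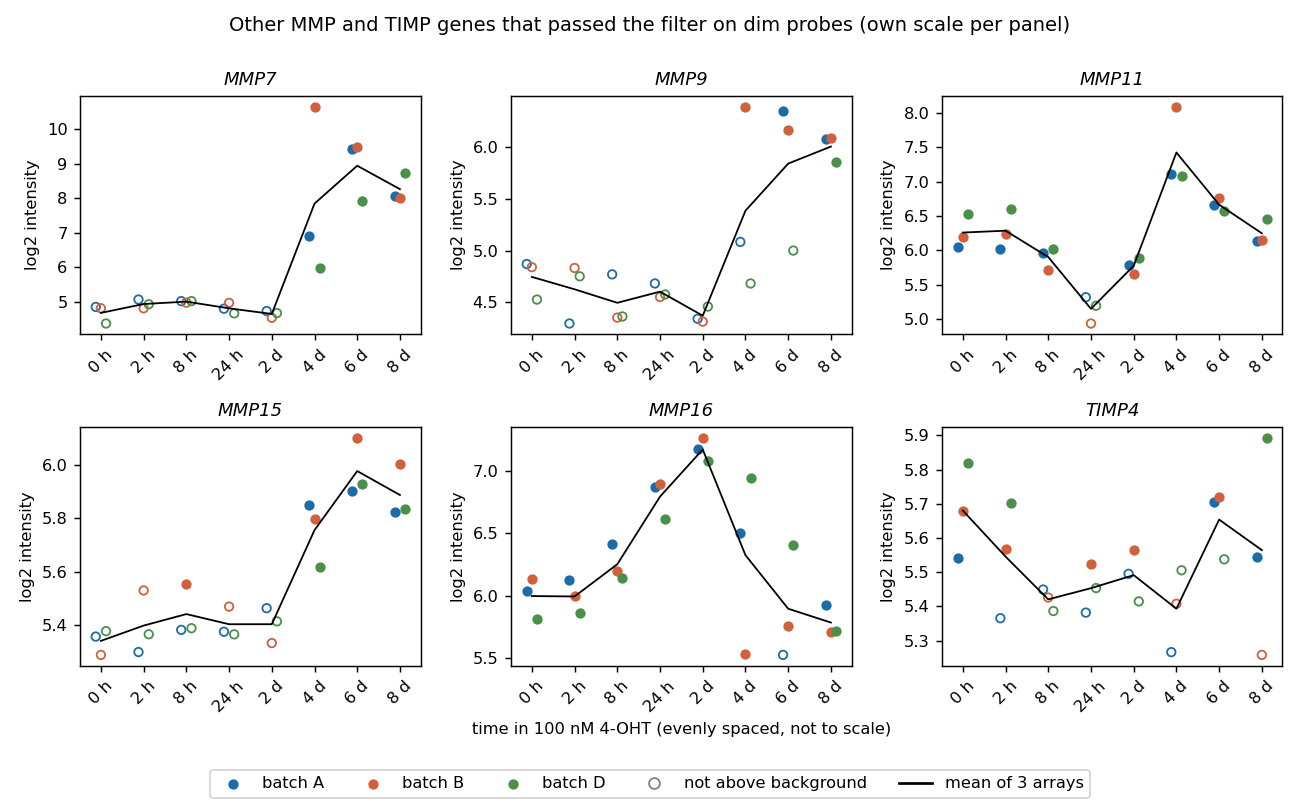
Log2 intensity of the 6 further MMP and TIMP genes that passed the filter on dim probes, on each of the 24 arrays, drawn as for the 9 main genes. MMP7, MMP9 and MMP15 are above background on the 3 arrays of 8 d and on none of 0 h, MMP11 is lowest at 24 h, and MMP16 is highest at 2 d.

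Of 10 tested genes of the pro-MMP activation list, which holds proteases and the receptor PLAUR, 7 were higher and none lower at 8 d, and 5 to 7 were higher over the alternatives tried. The median change was 0.63, beside 0.02 over all genes, of which 24.1% were called higher. The plasminogen activator PLAT had the largest change, 2.08 ± 0.22 (adjusted p = 3.17e-08), followed by the cysteine cathepsins CTSK (1.38 ± 0.19), CTSB (1.32 ± 0.16) and CTSL (0.96 ± 0.15). PLAUR, the urokinase receptor, was higher by 0.65 ± 0.20 (adjusted p = 0.0106). That call was lost with median centring (adjusted p = 0.214), without the 0 h array (0.0775) or the 8 d array (0.0863) of batch D, and without batch D (0.131). At 24 h the list had 2 higher and 2 lower, beside 6.89% and 11.2% of all genes. Over the alternatives tried, that was 0 to 3 higher and 0 to 2 lower. PRSS2 of this list was above background on no 0 h array and so passed the filter through later arrays.

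Other inhibitors and regulators of MMPs gave 5 of 18 higher and 5 lower (8 without batch D) at 8 d, with a median of -0.01, shares near the 24.1% and 23.5% of all genes. TFPI2, a secreted inhibitor of serine proteases that also acts on some MMPs, was higher by 3.25 ± 0.42 (9.52-fold, adjusted p = 9.2e-07). RECK, a membrane-anchored MMP inhibitor, was lower at 8 d by a change of -1.44 ± 0.10 (adjusted p = 6.95e-11), and its change was already -1.27 at 24 h. CAV1, the caveolae protein, was lower by -1.37 ± 0.17, PCOLCE, an enhancer of procollagen processing with a TIMP-like domain, by -1.23 ± 0.11, and SDC1, a heparan sulfate proteoglycan, by -1.09 ± 0.18. PCOLCE was higher at 4 d (0.43) before it was lower at 8 d. CLDN5 of this list was above background on no 0 h array and passed the filter through later arrays. The counts of this list were therefore fixed in part by the filter.

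Among 23 transcription factors known to act on MMP promoters, 7 were higher and 4 lower at 8 d, with a median of 0.10, beside 24.1% and 23.5% of all genes. With median centring or without batch A, 3 were higher. FOSB and ETV1 of this list were above background on no 0 h array and passed the filter through later arrays. The counts of this list were therefore fixed in part by the filter. CEBPD and CEBPB, of the C/EBP family, were higher by 1.61 ± 0.23 and 0.95 ± 0.14 (adjusted p = 2.6e-06 and 3.92e-06), and ETS2 by 0.96 ± 0.10 (5.34e-08). CEBPD had been lower at 24 h (-1.44) and 2 d (-0.75). FOSL1, an AP-1 subunit, was lower by -0.80 ± 0.14 (adjusted p = 6.6e-05), and RUNX1 by -1.01 ± 0.10 (1.79e-08).

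Cytokines and growth factors that are known to act on MMP genes gave 8 of 12 higher and 1 lower at 8 d, beside 24.1% and 23.5% of all genes, and a median of 1.34. IL1B, an inflammatory cytokine, was higher by 8.52 ± 0.30 (adjusted p = 5.03e-16), with 1 of 3 arrays above background at 0 h, and IL1A, its relative, was at least 73.0-fold higher (1.59e-15). IL6 and LIF, of one cytokine family, were higher by 5.41 ± 0.36 and 2.95 ± 0.28, and EREG, an EGF receptor ligand, was at least 4.18-fold higher. IL1A, EREG and PDGFB were above background on 0 of 3 arrays at 0 h and passed the filter through later arrays. How many of the 12 were higher at 8 d was therefore fixed in part by the filter. IL6 had been lower at 24 h (-2.31) and 2 d (-1.26) and was higher at 4 d (4.25). At 2 d IL1A was at least 1.93-fold higher than at 0 h (adjusted p = 0.000138), and IL1B was higher by 2.27 (5.13e-06).

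Of 22 tested genes for matrix proteins that MMPs cut, 15 were lower and none higher at 24 h, where 11.2% of all genes were lower, and the counts were equal at 2 d (12.5%). At 4 d against 2 d, 13 were higher (17% of all genes) and none lower, and at 8 d against 4 d 14 were lower (9 without batch A, 8 without batch B) and none higher, beside 10.1% of all genes lower. At 8 d against 0 h, 13 were lower (23.5% of all genes) and 1 higher, with a median of -0.49. The largest changes at 8 d were in the small proteoglycan DCN (-3.24 ± 0.22, adjusted p = 3.13e-11), the large proteoglycan VCAN (-1.97 ± 0.15) and the collagen chains COL1A2 (-2.04 ± 0.17), COL5A2 (-1.80 ± 0.11) and COL3A1 (-1.68 ± 0.17). COL7A1, the anchoring fibril collagen, was the 1 higher (0.60, adjusted p = 0.0472). Over the alternatives tried, 0 to 1 of the 22 were higher at 8 d against 0 h and 10 to 14 lower, so the COL7A1 call did not always hold. COL1A1, COL1A2, COL3A1, DCN and LUM are also fibroblast markers: of the 12 markers 8 were lower and 1 higher at 8 d, and their part in the result was not tested.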

How the data were processed

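RNA was measured with Illumina human-6 v2 BeadChips on 24 arrays, 3 at each of 8 time points, grouped by the time and batch letter of the labels. The authors deposited log2 intensities of 48701 probes per array, from 3.21 to 14.8 by the values, and a series matrix of log2 values that are quantile-normalized, judged by the values. The scanner software and any earlier background step are not given in the sources used here. The planned control-probe correction and detection p filter were replaced, because the files used here hold neither.

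Deposited values were put on the linear scale, corrected with limma's normexp model (saddle estimate, offset 16), quantile-normalized and taken as log2. A probe counted as above background at a model probability under 0.01, from the mode (5.54 to 6.01) and the spread below it on each array. This left 12444 probes that were above on 3 or more arrays. A gene's level is that of its brightest such probe, by the mean of the series matrix values. Of 48701 probes, 23687 had 1 gene symbol, 35 several and 24979 none, and 99.8% of named probes matched RefSeq by Entrez ID. Bounds ("at least") use the lowest signal above background on each array, or the probe's own where higher. The number of arrays limits precision.

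limma 3.58.1 (R 4.3.3) was fitted with a mean for each of the 8 time points over the 24 arrays, unblocked (16 residual and 6.70 prior degrees of freedom). The 9 comparisons set each later time against 0 h, 4 d against 2 d and 8 d against 4 d, and Benjamini-Hochberg adjustment ran within each one over all genes tested. The script was tested on simulated data. Arrays of one letter count as paired in the changes given per batch and in the replicate block, because they share a batch letter in the labels. The series text names 3 biological batches and no block. The main fit does not pair arrays of one letter. The mean correlation of residuals within a letter was 0.0368 (A), 0.00434 (B) and 0.0599 (D), against -0.0158 for other letters and times. Alternatives were the series matrix values, median centring, an offset of 50, no filter, the mean of kept probes, batch as a replicate block, and each array or batch left out.

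The genes named are the 9 members, 3 genes with the highest correlation to each, the other MMP and TIMP genes that passed the filter, and up to 5 called genes with the largest change at 8 d against 0 h from each list (pro-MMP activators, other inhibitors and regulators, transcription factors, cytokines, matrix substrates). The members and the lists were chosen with earlier results of these data known. COL7A1 and the markers were named after their values were seen. Promoter windows come from RefSeq (GRCh38.p14).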

Additional observations from a re-analysis of the deposited data

Results flagged for a closer look

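Changes from 0 h that differed between 4 d and 2 d or between 8 d and 4 d, by limma's test of the difference itself, are listed for a closer look. From 2 d to 4 d, MMP3 gained 2.72, MMP10 3.27, MMP12 0.79, MMP14 0.69, MMP2 0.59 and TIMP1 0.22 on the log2 scale. From 4 d to 8 d, MMP12 gained 2.64 and MMP2 0.35, while TIMP3 changed by -0.45. No group has more than 3 arrays, so single arrays were not tested as outliers.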

How the results depend on the processing

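Median centring, which moved the median change of all genes to -0.19 at 2 h, -0.13 at 24 h, -0.10 at 2 d, -0.12 at 6 d and -0.15 at 8 d, called 23 genes at 2 h (68 with quantile normalization), 165 at 8 h (502), 1680 at 2 d (2584), 2483 at 4 d against 2 d (3963) and 1287 at 8 d against 4 d (2239). Of the 9 MMP and TIMP genes it called 0 at 8 h (1) and 1 at 8 d against 4 d (3). At 8 d against 0 h it called 6 (8). The share of called genes that were higher was 10.5% with it at 24 h (38.1% without), 20.5% at 2 d (46.8%), 37.3% at 4 d (49.5%), 30.4% at 6 d (52.2%), 27.3% at 8 d (50.7%), 25.0% at 8 d against 4 d (50.7%) and 56.5% at 2 h (67.6%). Leaving out 1 array or 1 batch gave 1 to 150 genes called at 2 h, 27 to 579 at 8 h, 663 to 1678 at 24 h, 866 to 2642 at 2 d, 3104 to 5027 at 4 d, 3277 to 4977 at 6 d, 1967 to 4360 at 4 d against 2 d, 854 to 2661 at 8 d against 4 d, and 5053 to 8005 over the time course. It gave 0 to 1 of the 9 genes called at 8 h and 2 to 4 at 24 h and at 2 d. The count was 5 to 7 at 4 d, 6 to 7 at 6 d and 6 to 8 at 8 d. For 4 d against 2 d it was 3 to 6, and for 8 d against 4 d 1 to 3. TIMP2 at 6 d turned to 0.37 with the mean of its 2 probes. With batch as a replicate block, TIMP1 at 4 d against 2 d stayed at 0.22 (adjusted p = 0.0528), and the block changed no other call of the 9 genes. Of the changes of single genes among settings that kept all arrays, 464 kept direction and call, 16 lost their call, 5 gained one and 1 reversed. Among those that left arrays out, 662 kept direction and call, 62 lost their call and 5 gained one. Where these changes moved, the cause was not tested. Settings that left arrays out also had fewer arrays. Probes near background, above all TIMP3 at 8 d and MMP12 at 0 h, limit what folds these arrays can show. So do the brightest ones, MMP1 and TIMP1, and MMP3 at 6 d and 8 d.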
